A study of Mus musculus with 8 samples.

Results

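The comparison set bone marrow cultures of mice without the coactivator Bob1 (genotype Bob1-/-, 2 arrays) against cultures of Bob1+/+ mice (2 arrays), out of 8 arrays of the study in 4 groups of 2. Its members were taken by the genotype label. Marrow of 10-week-old C57BL/6 mice was flushed from the femur and grown for 5 days with IL-7 in Iscove's medium containing 10% fetal calf serum, in all groups alike. Total RNA was turned into Cy3-labelled cRNA from an oligo-dT primer and read on 1-colour Agilent arrays. The other 4 arrays came from wild-type mice labelled C57BL/6Ncrl, called BL6 wild-type here, and from miR-146a knockout mice, and served to estimate spread and slide effects, as a same-slide control and as a further reference level. Replicate A was female and replicate B male in every group. The labels speak of biological duplicates and do not say how many animals a culture held, so p-values measure the spread between cultures. The knockout allele and the cells in which it acts are not described further in the sources used here.

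Bob1 is the protein of Pou2af1 (also called OBF-1 or OCA-B). It does not bind DNA alone but joins the POU factors Oct-1 and Oct-2 on the octamer element, best known from immunoglobulin promoters, and helps to recruit the transcription machinery there. IL-7 drives the outgrowth of pro-B and pre-B cells from marrow, so that such a culture is rich in B cell precursors but also keeps other marrow cells. Since whole cultures were measured, fewer cells of a type and less RNA per cell cannot be told apart.

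Pou2af1 itself read 6.4 and 6.56 in wild-type cultures A and B and 2.71 and 2.82 in knockout cultures A and B, where 0 is the 75th percentile of the log2 signal of an array. Both knockout values lay below all other arrays, which read 6.41 to 6.72 in the other groups, and the fall was 13.1-fold (adjusted p = 0.000211). The sources used here do not say whether the probe lies in the deleted part. For the labelled cell type, all 15 pre-B and pro-B markers were well above background in both groups, with a summed signal of 1066 and 1206 times the 75th percentile in wild-type and 1071 and 914 times in knockout cultures. Of these, Cd24a, Il7r and Rag2 rose, Vpreb3 and Cd79b fell, and the other 10 were not called. Bright markers weigh most in the sum and went both ways. Vpreb3 read 8.17 and 8.21 in wild-type and 5.92 and 5.33 in knockout cultures, and Cd24a 6.32 and 6.27 against 7.42 and 7.32. The sum therefore does not give the share of precursor cells. Between 60.5% and 66.1% of probes per array were well above background, the 75th percentile ran from 494 to 782 intensity units, and the knockout arrays were the dimmest (494 and 622 units).

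Of 17047 features tested, 1228 were called, which is 7.2%; 638 rose (3.74%) and 590 fell (3.46%). A call means a limma p-value below 0.05 after Benjamini-Hochberg adjustment over all 17047 features, with no minimum fold, and rose and fell are used only of calls. Transport, adhesion, metabolism and signalling were described with 44 gene lists that held 3171 tested genes out of 4452 on the array, of which 95 rose and 151 fell (7.76% called against 7.2% of all features). Signalling genes were called at 10.2% (45 rose and 83 fell of 1250), adhesion genes at 8.72% (20 and 23 of 493), transport genes at 6.57% (15 and 26 of 624) and metabolic genes at 4.49% (17 and 20 of 824). Members well above background on both wild-type arrays but not on both knockout arrays numbered 257 of 3171, and the reverse held for 25. Over all 17047 features these counts were 1238 and 182. Such genes entered the test through the group in which they are high, so a direction among them is in part a matter of selection.

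Wild-type A and B shared slide 1, and knockout A and B shared slide 2, so slide and genotype cannot be told apart within these 4 arrays. The BL6 wild-type and miR-146a knockout groups each had an array on either slide and allowed 2 further values. With slide as a block in the fit, 128 features (0.751%) were called, 104 lower and 24 higher, among them 23 of the 246 called class members. Against the 2 Bob1-sufficient arrays of slide 2 itself, BL6 wild-type B and miR-146a knockout A, 1030 features (6.04%) were called, and 181 of the 246 class members were called there too. The same 2 knockout arrays enter both comparisons, so this overlap is not an independent check. Among the genes named in the text, Tnfrsf19, Lat2, Sit1, Il2rg, Csf1, Vegfa, Vegfb, Lpcat1, Rasgef1a, Gpr84, Lrp5, Tcf7l2, Smad1, Sema6a, Col24a1, Col27a1, Cd37, Itga9, Marcks, Slc15a3, Slc30a4, Slc11a2, Aqp4, Atp2b2, Rab20, Pnpla7, Chka, Acat2, Csgalnact2, Large2 and Pfas were not called against that control. Slide as such was called for 0 features by limma in the fit with slide as a block, and 425 features had an unadjusted p under 0.05.

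The number of calls moved with each array left out. Leaving out BL6 wild-type A or B gave the same counts, and so did leaving out miR-146a knockout A or B. These fits change the estimate of spread but not the difference between the Bob1 groups, so the 8 fits are not 8 separate checks. It was 386 without wild-type A, 493 without wild-type B, 557 without knockout A, 615 without knockout B, 642 without either miR-146a knockout array and 965 without either BL6 wild-type array. Of the 246 class members, 41 were called in all 8 of these fits and 42 in none. Of the 386 calls without wild-type A, 311 were also among the 1228. Members called in signalling, adhesion, transport and metabolism, 128, 43, 41 and 37 with all arrays, numbered 29, 12, 12 and 7 without wild-type A. Without wild-type B these counts were 46, 18, 18 and 8, without knockout A 51, 19, 22 and 12, without knockout B 61, 32, 21 and 18, and without either miR-146a knockout array 67, 25, 21 and 15. Traf3ip2 has a wild-type B spot with an outlier flag and was fitted on 7 arrays. Among the genes named in the text, Sit1, Il2rg, Csf1, Vegfa, Rasa3, Tbxa2r, Lrp5, Cd37, Cd22, Slc9a7, Slc30a4, Aqp4, Acat2, Csgalnact2, Pfas and Tk1 were called in none of the 8 fits. With a normexp background correction over all spots 0 features were called by limma (126 had an unadjusted p under 0.05), and without the 15 spots darker than their background 3350 were called.

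**Figure D1:**
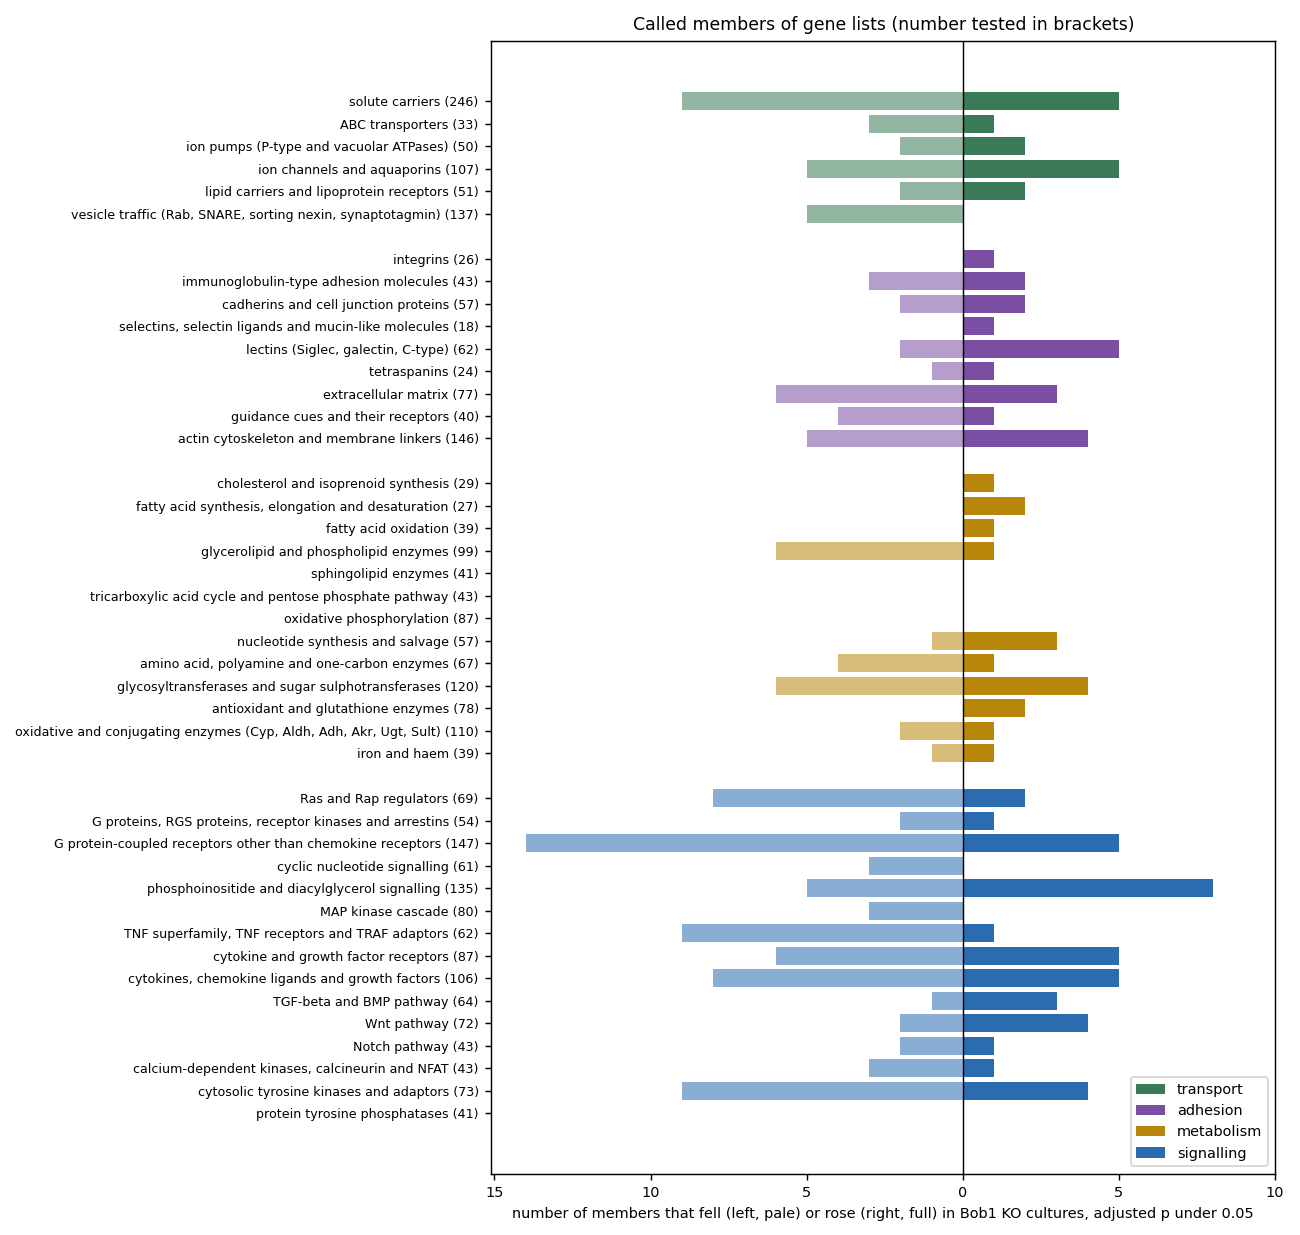
Number of members of the gene lists that fell (pale bars to the left) or rose (full bars to the right) in Bob1 knockout cultures, with the number tested in brackets. G protein-coupled receptors held the most falls (14) and phosphoinositide signalling the most rises (8), while oxidative phosphorylation, the tricarboxylic acid cycle list, sphingolipid enzymes and protein tyrosine phosphatases held none.

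Signalling held the most calls. Among TNF ligands, TNF receptors and the TRAF adaptors that pass their signals to NF-kB, 9 of 62 tested members fell and 1 rose. That is 16.1% called beside 7.2% of all features, and the median log2 fold change was -0.36 against 0.12 over all features. Cd40, the receptor through which B cells receive T cell help, read -0.61 and -0.81 in wild-type and -2.98 and -3.23 in knockout cultures, a 5.26-fold fall (log2 difference -2.39, SE 0.15, adjusted p = 0.000639). Traf5, an adaptor of CD40 and related receptors, read 2.02 and 1.94 against 0.64 and 0.44 and fell 2.71-fold (SE 0.14, adjusted p = 0.00331). Ngfr, the low-affinity neurotrophin receptor, read -2.3 and -2.61 against -4.28 and -4.58 (3.93-fold lower, adjusted p = 0.00355), although the dimmer of its 2 probes differed by 0.86 in the opposite direction. For all 3 genes both knockout arrays lay below both wild-type arrays and below the 4 other arrays, and all 3 were also called with slide as a block (adjusted p = 0.0263, 0.0396 and 0.037).

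The other falls of this list were Ltb, the lymphotoxin beta ligand (3.1-fold), Tnfaip8l2 (2.35-fold), Traf3ip2 (2.09-fold), the apoptosis inhibitor Birc3 (1.98-fold), Tnfaip3, which encodes the NF-kB inhibitor A20 (1.78-fold), and Traf3, which restrains non-canonical NF-kB signalling (1.63-fold). None of these 6 was called with slide as a block (adjusted p from 0.199 to 0.37), while all 6 were called against the same-slide control. Tnfrsf19 was the only rise (2.16-fold, adjusted p = 0.0262). The receptors of the survival factor BAFF were not called. Tnfrsf13c had a log2 difference of -0.57 (adjusted p = 0.119) and Tnfrsf13b of 0.49 (adjusted p = 0.0824).

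Cytosolic tyrosine kinases and adaptors had 9 falls and 4 rises among 73 tested members, 17.8% called beside 7.2% of all features. Bank1, a scaffold of B cell receptor signalling, read 0.30 and -0.024 in wild-type and -3.16 and -3.74 in knockout cultures and fell 12.1-fold (log2 difference -3.59, SE 0.25, adjusted p = 0.00103), and its 2 probes differed by -4.12 and -3.59. The knockout arrays lay below all 6 others, and the gene was also called with slide as a block (adjusted p = 0.0247). Further falls were the kinases Tec (1.99-fold) and Matk (1.78-fold), the inhibitory adaptors Dok3 (2.17-fold) and Dok4 (2.68-fold), Pstpip1 (1.96-fold), and Lat2 (1.59-fold), the linker used by B and mast cells. Ptk2, the focal adhesion kinase, fell 4.29-fold by its brighter probe, while its other probe differed by 0.22.

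The 4 rises in this list were Zap70, Lck, Clnk and Sit1. Zap70, which couples the T cell receptor, read -0.96 and -1.61 in wild-type and 0.67 and 0.49 in knockout cultures (3.65-fold, adjusted p = 0.0489). Lck, its Src family partner, read 1.38 and 1.33 against 2.2 and 2.1 (1.74-fold, adjusted p = 0.0268). Clnk, an adaptor of the SLP-76 family, read -3.77 and -4.85 against -1.56 and -1.49 (6.9-fold, SE 0.58, adjusted p = 0.0404), and the wild-type duplicates lay further apart than the knockout duplicates. Its second probe differed by 0.68, and it was called in 2 of 8 fits with an array left out. Sit1 rose 1.72-fold. No rise of this list was called with slide as a block (adjusted p from 0.129 to 0.393). Of 14 tested markers of T and NK cells limma called 0 as risen (0 at an unadjusted p under 0.05) and 1, Prf1, as lower. Their median log2 fold change was -1.13 and their summed signal 38.2 and 35.4 times the 75th percentile in wild-type and 30.6 and 17.7 times in knockout cultures.

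**Figure D2:**
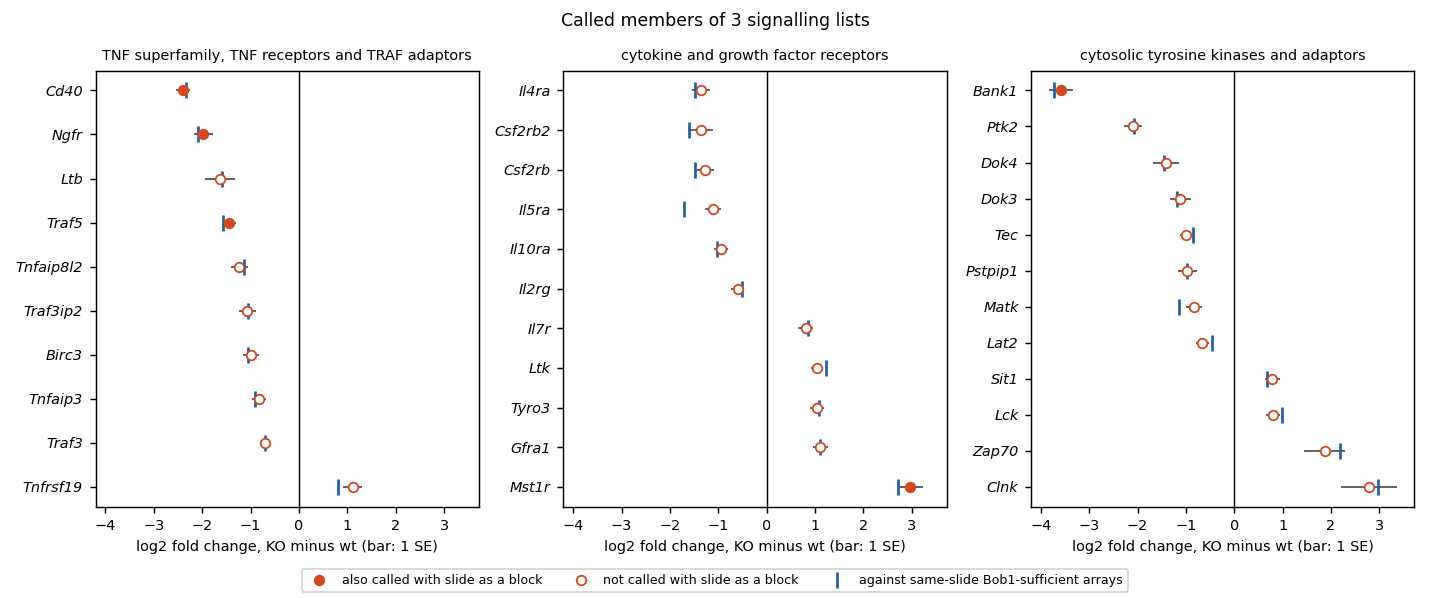
Log2 fold change (Bob1 knockout minus Bob1 wild-type, bars 1 SE) of called members of 3 signalling lists; filled circles were also called with slide as a block, and the vertical ticks give the difference from the 2 Bob1-sufficient arrays of the same slide. Cd40, Ngfr, Traf5, Bank1 and Mst1r are the filled points, and the ticks lie on the side of 0 of their circles in every case. Circles and ticks share the same 2 knockout arrays, and 1223 of all 1228 calls kept their direction there, so this agreement was largely set in advance.

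Receptors of cytokines and growth factors had 6 falls and 5 rises among 87 tested, 12.6% called beside 7.2% of all features. Il4ra, the IL-4 and IL-13 receptor chain, read 1.01 and 0.61 in wild-type and -0.71 and -0.41 in knockout cultures (2.57-fold lower, adjusted p = 0.0112). Il7r, the receptor of the cytokine that sustained the cultures, read 3.0 and 2.83 against 3.7 and 3.73 (1.75-fold higher, adjusted p = 0.0286), and its 3 probes differed by 0.80 to 0.94. Il2rg, the common chain that pairs with it, fell 1.52-fold (adjusted p = 0.0468). Il2rg was called in 0 of 8 fits with an array left out and not against the same-slide control (adjusted p = 0.200), while Il7r was called there (adjusted p = 0.0187). With slide as a block neither was called (adjusted p = 0.355 and 0.452).

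Csf2rb, the shared beta chain of the IL-3, IL-5 and GM-CSF receptors, fell 2.4-fold and its close copy Csf2rb2 2.56-fold, and cross-hybridisation between them was not tested. Il5ra fell 2.16-fold and Il10ra 1.93-fold. The largest rise was that of Mst1r, the RON receptor tyrosine kinase, which read -4.74 and -4.37 in wild-type and -1.65 and -1.52 in knockout cultures (probe at chr9:107822566-107822625, mm9). Both knockout arrays stood above the other 6, at 7.83-fold (log2 difference 2.97, SE 0.26, adjusted p = 0.00225; 0.029 with slide as a block). Gfra1, Ltk and Tyro3 rose 2.16-, 2.05- and 2.06-fold.

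Among secreted cytokines, chemokines and growth factors 8 of 106 fell and 5 rose, 12.3% called beside 7.2% of all features. Il18, an interferon gamma inducing cytokine, read -0.47 and -0.62 in wild-type and -2.7 and -2.35 in knockout cultures (3.95-fold lower, SE 0.19, adjusted p = 0.00319). Adm, the peptide adrenomedullin, read -0.86 and -1.21 against -4.02 and -3.31 (6.18-fold lower, adjusted p = 0.0046). Neither overlapped between groups, and neither reached the threshold with slide as a block (adjusted p = 0.0802 and 0.0935). Il33 fell 3.01-fold, Clcf1 2.33-fold, Pros1, a ligand of the TAM receptors to which Tyro3 belongs, 2.23-fold, Il12a 2.09-fold and Csf1 1.43-fold. The probe for Gh, growth hormone, read -2.84 and -2.75 in wild-type and -5.18 and -6.75 in knockout cultures, where it was well above background on 1 of 2 arrays (8.99-fold lower, SE 0.51, adjusted p = 0.0201; 0.132 with slide as a block).

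Ghrh, the hypothalamic growth hormone releasing hormone, went the other way. It read -3.05 and -3.07 in wild-type and 0.23 and 0.52 in knockout cultures (probe at chr2:157155253-157155312, mm9), while the 4 other arrays read -3.48 to -3.08. Both knockout arrays were above all others, a 10.8-fold rise (log2 difference 3.43, SE 0.16, adjusted p = 0.000267; 0.0101 with slide as a block). Ccl21a, a chemokine that guides CCR7-bearing cells, was not well above background on either wild-type array and read -3.36 and -3.44 in knockout cultures, at least 6.82-fold higher (adjusted p = 6.59e-05; 0.00445 with slide as a block). Which of the near-identical Ccl21 copies gave this signal is uncertain. Vegfa, Vegfb and Hbegf rose 1.54-, 1.83- and 1.69-fold.

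The octamer was searched as ATGCAAAT, and on the opposite strand as ATTTGCAT, in 300-base RefSeq windows of assembly GRCm38.p6 that reach from 250 bases before a transcript start to 50 bases after it. It lay in 1.74% of all 32851 windows, in 1.41% of the 13969 windows of tested genes outside the immunoglobulin features, in 3.88% of the 412 windows of genes that fell and in 2.16% of the 463 windows of genes that rose. Within the 4 classes 4 of 165 windows of falling genes held it (2.42%) and 1 of 110 windows of rising genes (0.909%). Among all tested members of the 4 classes it lay in 44 of 3291 windows (1.34%), and the difference between these shares was not tested. The 5 windows of called members are shown around their motifs, 5′ to 3′ on the gene's strand with the octamer in capitals. They were chosen only because they hold the motif.
Ghrh (chr2:157346837-157346904, minus strand): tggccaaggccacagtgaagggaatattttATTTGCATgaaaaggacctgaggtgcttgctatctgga
Il18 (chr9:50554633-50554699, plus strand): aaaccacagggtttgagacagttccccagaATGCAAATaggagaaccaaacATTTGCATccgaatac
Il33 (chr19:29945673-29945740, plus strand): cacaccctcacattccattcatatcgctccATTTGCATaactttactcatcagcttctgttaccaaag
Il4ra (chr7:125552102-125552169, plus strand): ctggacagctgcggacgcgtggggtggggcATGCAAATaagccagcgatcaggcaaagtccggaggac
Lpcat1 (chr13:73467079-73467146, plus strand): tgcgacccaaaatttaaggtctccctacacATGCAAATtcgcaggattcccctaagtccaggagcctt
Il18 carries 2 octamers, on opposite strands, 8 and 29 bases before its start. The octamer lies 131 bases before the start of Il4ra, 79 before that of Il33, 114 before that of Lpcat1 and 211 before that of Ghrh. Lpcat1 is a lysophosphatidylcholine acyltransferase that fell 1.58-fold (adjusted p = 0.0352). Of the 5, Ghrh is the one that rose. Only sequence was matched here, and no binding was measured.

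Of 69 tested Ras and Rap regulators, a list of exchange factors, GTPase-activating proteins, effectors and the GTPases themselves, 8 fell and 2 rose. That is 14.5% called, beside 7.2% of all features. Rasgrp1, a diacylglycerol-activated Ras exchange factor, read 2.14 and 1.96 in wild-type and -0.0073 and 0.054 in knockout cultures, a 4.06-fold fall (log2 difference -2.02, SE 0.14, adjusted p = 0.00100), and its dimmer probe differed by -0.21. Rap1gap, which switches Rap1 off, read -0.17 and 0.11 against -1.5 and -1.63 (2.9-fold lower, adjusted p = 0.00484). For both genes the knockout duplicates lay close together and did not overlap the wild-type arrays, and both genes were called with slide as a block (adjusted p = 0.018 and 0.0455). Rap1gap2 fell as well (3.44-fold), as did Rasgef1a (2.87-fold), Ralgps2 (2.03-fold), Rassf2 (1.82-fold) and Rasa3 (1.7-fold). Rasd1, a Ras-like G protein, was not well above background on either knockout array and was at least 6.35-fold lower (adjusted p = 0.0132; 0.213 with slide as a block). Rap1a itself rose 1.68-fold, and Rapgef3, the cyclic AMP-gated Rap1 exchange factor EPAC1, read 1.66 and 1.35 against 3.65 and 3.43 and rose 4.09-fold (adjusted p = 0.0139).

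Phosphoinositide and diacylglycerol signalling had 8 rises and 5 falls among 135 tested, 9.63% called beside 7.2% of all features. The median log2 fold change of the list was -0.010, against 0.12 over all features. Plekhh3, a pleckstrin homology protein, read -1.31 and -1.71 in wild-type and 0.87 and 1.01 in knockout cultures, a 5.46-fold rise (log2 difference 2.45, SE 0.19, adjusted p = 0.00155; 0.0303 with slide as a block). Pitpnm2, a phosphatidylinositol transfer protein, rose 2.41-fold, Plekhh1 2.53-fold, Plcl1 2.08-fold and Itpka, an inositol trisphosphate kinase, 1.97-fold. Among the falls were the PI3-kinase gamma adaptor Pik3r5 (2.27-fold), phospholipase Plcb2 (1.79-fold) and protein kinase Prkcd (1.92-fold). Plekhh3 was the only member of this list called with slide as a block.

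G protein-coupled receptors outside the chemokine receptors had 14 falls and 5 rises among 147 tested, 12.9% called beside 7.2% of all features. S1pr1, the sphingosine 1-phosphate receptor that lets lymphocytes leave tissue, read 1.37 and 1.13 in wild-type and 0.13 and 0.081 in knockout cultures (2.21-fold lower, adjusted p = 0.0135). P2ry10, a lysophospholipid receptor of lymphocytes, read -0.070 and -0.48 against -1.62 and -1.88 (2.78-fold lower, adjusted p = 0.0219). Lpar2, a lysophosphatidic acid receptor, read -2.17 and -2.1 against -0.51 and -0.23 and rose 3.41-fold (adjusted p = 0.0046), and its relative Lpar1 rose 2.87-fold. Lower were also Gpr84 (2.57-fold), Gpr18 (2.33-fold), Gpr65 (2.02-fold) and Tbxa2r (1.97-fold), and Lgr5, the R-spondin receptor, was higher (2.31-fold). With slide as a block limma called 0 of the 19 (17 had an unadjusted p under 0.05), and against the same-slide control 14 of the 19.

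Of the remaining signalling lists, Wnt genes had 4 rises and 2 falls among 72, 8.33% called and near the 7.2% of all features. Wnt10a, a Wnt ligand, read 0.61 and 0.27 in wild-type and -2.76 and -3.29 in knockout cultures, without overlap, and fell 11.1-fold (log2 difference -3.47, SE 0.35, adjusted p = 0.00429; 0.0902 with slide as a block). Lrp5, the Wnt co-receptor, and Tle6 and Tcf7l2, of the transcriptional end of that pathway, rose 1.43-, 2.54- and 1.89-fold. Trib2, a pseudokinase scaffold listed with the MAP kinase cascade, read 0.37 and 0.37 against -3.0 and -2.95 and fell 10.2-fold (SE 0.18, adjusted p = 0.000397; 0.00673 with slide as a block), and its 2 probes differed by -3.35 and -3.32. In the MAP kinase list 3 of 80 fell and limma called 0 as risen (7 higher at an unadjusted p under 0.05). That is 3.75% called, beside 7.2% of all features. Notch2 and its modulator Dtx1 fell 1.88- and 3.06-fold, while Hes6 rose 1.68-fold. Bmp4, Bmpr1a and Smad1 of the BMP pathway rose 2.13-, 2.07- and 1.53-fold, of which Smad1 was not called against the same-slide control (log2 difference 0.26, adjusted p = 0.31). Among protein tyrosine phosphatases limma called 0 of 41, with 9 at an unadjusted p under 0.05, and Ptprc, the pan-leukocyte phosphatase CD45, had a log2 difference of 0.0022 (SE 0.17).

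**Figure D3:**
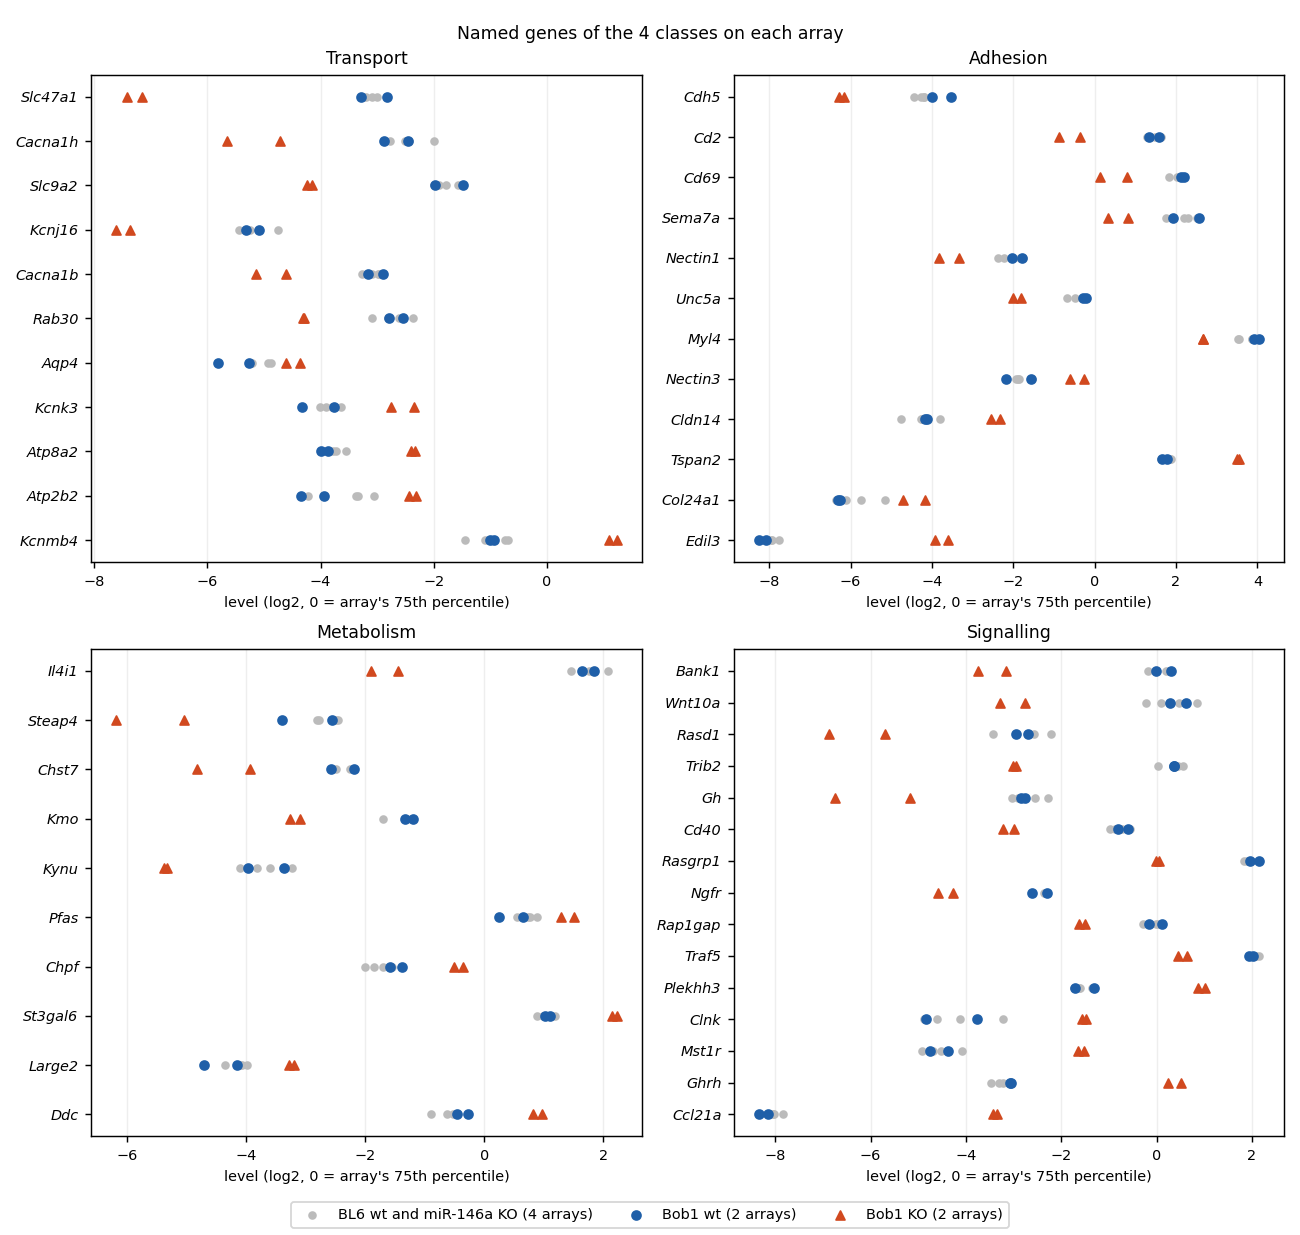
Level on every array (log2 signal, 0 is the array's 75th percentile) of named transport, adhesion, metabolic and signalling genes; blue circles are Bob1 wild-type, red triangles Bob1 knockout and grey circles the 4 arrays of the other groups. In every row both triangles lie to the same side of both blue circles, which the naming rule required of the largest falls and rises. The grey circles lie mostly beside the blue.

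Adhesion genes comprised molecules between cells, matrix and actin linkers. Cd2, a receptor for CD48 on lymphocytes, read 1.59 and 1.34 in wild-type and -0.36 and -0.89 in knockout cultures, a 4.25-fold fall (log2 difference -2.09, SE 0.22, adjusted p = 0.0046). Cd69, a C-type lectin that holds lymphocytes in tissue by antagonising S1PR1, read 2.2 and 2.11 against 0.80 and 0.14 (3.22-fold lower, adjusted p = 0.0119). Both were lower on both knockout arrays than on any other array, and neither was called with slide as a block (adjusted p = 0.0825 and 0.193), while both were against the same-slide control. S1pr1, described above, fell as well. Nectin1 and Nectin3, partners in cell contacts, moved apart: Nectin1 fell 3.19-fold (adjusted p = 0.0228) and Nectin3 rose 2.71-fold (adjusted p = 0.0262). In the SLAM family Slamf9 fell 2.51-fold and Slamf7 rose 1.72-fold.

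Guidance molecules had 4 falls and 1 rise among 40 tested, 12.5% called beside 7.2% of all features. Unc5a, a netrin receptor, read -0.22 and -0.29 in wild-type and -1.82 and -2.0 in knockout cultures (3.15-fold lower, SE 0.17, adjusted p = 0.00475; 0.0278 with slide as a block). The semaphorins Sema7a and Sema4b fell 3.19- and 2.53-fold and Rgmb 2.6-fold, while Sema6a rose 1.84-fold. Unc5a alone of these was called with slide as a block.

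Among matrix genes 6 of 77 fell and 3 rose, 11.7% called beside 7.2% of all features. Edil3, an integrin-binding matrix protein, was not well above background on either wild-type array and read -3.93 and -3.61 in knockout cultures, at least 5.27-fold higher (adjusted p = 0.000104; 0.00673 with slide as a block). Col24a1 was likewise dim in wild-type cultures and at least 3.3-fold higher (adjusted p = 0.0369), but it was not called against the same-slide control (adjusted p = 0.0783), and with normexp over all spots its difference was -0.015. Col5a3, Col26a1 and Col27a1 fell 2.82-, 2.72- and 2.44-fold and Emilin1 2.26-fold. The median of the 77 was -0.86, -0.16 with slide as a block and 0.03 after normexp without the darkest spots, so no direction is given for the list. Cdh5, the cadherin of endothelial junctions, was not well above background on either knockout array and was at least 3.32-fold lower (adjusted p = 0.00141; 0.0431 with slide as a block). It was the only one of 14 tested stromal and endothelial markers to be called. Lepr was not well above background on any array of either group. Their median was -1.20, their summed signal was 9.67 and 16.3 times the 75th percentile in wild-type and 3.27 and 13.9 times in knockout cultures, and their part in the matrix and junction values was not tested.

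Of 24 tetraspanins 1 rose and 1 fell, 8.33% called beside 7.2% of all features. Tspan2, a tetraspanin, read 1.65 and 1.77 in wild-type and 3.5 and 3.55 in knockout cultures (3.52-fold, SE 0.13, adjusted p = 0.00122; 0.0396 with slide as a block), whereas the B cell tetraspanin Cd37 fell 1.67-fold. Cd24a, a mucin-like molecule of precursor cells, read 6.32 and 6.27 against 7.42 and 7.32 (2.11-fold higher, adjusted p = 0.00483). The tight junction gene Cldn14 rose 3.29-fold, and 3 Clec2 lectins of the NK receptor complex rose, Clec2g 1.95-fold, Clec2i 1.74-fold and Clec2m 2.31-fold, though their similar sequences leave the share of each uncertain. Cd22, the inhibitory Siglec of B cells, rose 1.53-fold. Of 26 integrins 1 was called, 3.85% beside 7.2% of all features. By limma 8 were lower and 3 higher at an unadjusted p under 0.05, and the median log2 fold change was -0.54. The call was Itga9 (1.56-fold higher, adjusted p = 0.0466), which was not called against the same-slide control (adjusted p = 0.31). Itga4, which binds VCAM-1 on stroma, had a log2 difference of 0.12 (SE 0.12) and Itgb1 of 0.11 (SE 0.11). Of actin linkers 5 fell and 4 rose among 146, 6.16% called beside 7.2% of all features. Myl4, a myosin light chain, read 3.92 and 4.05 against 2.67 and 2.66 (2.49-fold lower, adjusted p = 0.00974; 0.0303 with slide as a block), Capg fell 2.24-fold and Swap70 2.04-fold, and Marcks rose 1.58-fold.

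In transport, solute carriers and channels gave most calls by number (14 and 10 of 41), and solute carriers are also the longest list. Slc47a1, the proton-coupled exporter MATE1, read -2.82 and -3.28 in wild-type cultures and was not well above background on either knockout array, at least 5.44-fold lower (adjusted p = 0.000267; 0.0101 with slide as a block). Slc9a2, a sodium-proton exchanger, read -1.98 and -1.48 against -4.23 and -4.14 and fell 5.49-fold (log2 difference -2.46, SE 0.19, adjusted p = 0.00142; 0.0315 with slide as a block). For both the knockout arrays lay below all 6 others. The list of solute carriers had 9 falls and 5 rises among 246 tested, 5.69% called beside 7.2% of all features. The falls took in Slc4a8, a sodium-driven bicarbonate exchanger (2.37-fold), the lysosomal histidine and peptide carrier Slc15a3 (2.11-fold), Slc2a6 (2.56-fold) and Slc9a7 (1.74-fold). Metal carriers were among the rises, with Slc39a8 (1.77-fold), Slc30a4 (1.63-fold) and the iron transporter Slc11a2 (1.71-fold). The main glucose carrier Slc2a1 had a log2 difference of 0.77 (adjusted p = 0.117) and the amino acid carrier Slc7a5 of 0.47 (adjusted p = 0.0815), both short of the threshold.

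Among ion channels and aquaporins 5 of 107 fell and 5 rose, 9.35% called beside 7.2% of all features. Kcnmb4, a regulatory subunit of calcium-gated potassium channels, read -1.01 and -0.93 in wild-type and 1.1 and 1.23 in knockout cultures, a 4.4-fold rise (SE 0.15, adjusted p = 0.00103; 0.0303 with slide as a block). The calcium channel pores Cacna1h and Cacna1b went down: Cacna1h read -2.87 and -2.45 against -4.71 and -5.65 (5.73-fold, well above background on 1 of 2 knockout arrays, adjusted p = 0.0157) and Cacna1b -3.17 and -2.9 against -4.61 and -5.15 (3.58-fold, adjusted p = 0.00700). The second probe of Cacna1h differed by -0.53. Kcnj16, an inward rectifier, was called as lower also with slide as a block, but its knockout signal was near background and its bound is only 1.22-fold; after normexp without the darkest spots the difference was 0.076 in the other direction. Kcnk3 rose 2.82-fold by its brighter probe, against -1.27 for the other. Aqp4, well above background on 1 of 2 wild-type arrays, was 2.07-fold higher (adjusted p = 0.0475). Yet Aqp4 was not called in any of the 8 fits with an array left out, nor against the same-slide control (adjusted p = 0.200).

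Of 50 ion pumps 2 fell and 2 rose, 8% called and near the 7.2% of all features. Atp2a3, the SERCA3 calcium pump of the endoplasmic reticulum, read 2.37 and 2.19 in wild-type and 1.38 and 1.23 in knockout cultures (1.98-fold lower, adjusted p = 0.0166). Atp2b2, a calcium pump of the plasma membrane, read -4.34 and -3.94 against -2.31 and -2.43 (3.41-fold higher, adjusted p = 0.0398), but it was not called against the same-slide control (log2 difference 0.85, adjusted p = 0.168). Atp8a2, a phospholipid flippase, rose 2.94-fold (adjusted p = 0.00285; 0.0685 with slide as a block). Cd36, a scavenger receptor and fatty acid carrier, read 0.76 and 0.58 against -1.36 and -0.51 and fell 3.04-fold (adjusted p = 0.0225). In vesicle traffic 5 of 137 fell and limma called 0 as risen, with 6 members higher at an unadjusted p under 0.05. That is 3.65% called, all of them falls, beside 7.2% called and 3.46% fallen over all features. The falls were the Rab GTPases Rab30 (3.09-fold), Rab20 (2.49-fold), Rab39 (2.29-fold) and Rab32 (2.08-fold), and the Rab effector Sytl2 (2.62-fold). Rab39 read -3.18 and -3.25 in wild-type and -4.41 and -4.41 in knockout cultures, and its call held in all 8 fits with an array left out (adjusted p = 0.00281; 0.0591 with slide as a block).

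Of metabolic genes 4.49% were called, beside 7.2% of all features, and that difference was not tested. Amino acid enzymes had 4 falls and 1 rise among 67. Il4i1, a secreted oxidase of phenylalanine and other aromatic amino acids, read 1.84 and 1.64 in wild-type and -1.45 and -1.91 in knockout cultures, and the 4 other arrays read 1.45 to 2.07 (probe at chr7:52095810-52095869, mm9). The knockout arrays lay below all 6 others by a 10.7-fold fall (log2 difference -3.42, SE 0.22, adjusted p = 0.000718; 0.0293 with slide as a block). Kmo and Kynu, successive enzymes on the kynurenine branch of tryptophan breakdown, fell as well. Kmo read -1.19 and -1.33 against -3.1 and -3.25 (3.76-fold, SE 0.16, adjusted p = 0.00200; 0.0372 with slide as a block). Kynu read -3.36 and -3.97 against -5.37 and -5.33, with 1 of 2 knockout arrays well above background (3.21-fold, adjusted p = 0.0325; 0.194 with slide as a block), and it was called in 2 of 8 fits with an array left out. Fah, the last enzyme of tyrosine breakdown, fell 1.68-fold and was called in 2 of 8 fits with an array left out. Ddc, the aromatic amino acid decarboxylase, read -0.27 and -0.45 against 0.82 and 0.96 and rose 2.38-fold (adjusted p = 0.0121), and it was not called with slide as a block (adjusted p = 0.202). The list as a whole was called at 7.46%, near the 7.2% of all features.

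Phospholipid and glycerolipid enzymes were called at 7.07% and those of fatty acid synthesis at 7.41%, both near the 7.2% of all features. The former had 6 falls and 1 rise among 99: Pld4 (2.55-fold), the acyltransferases Mboat1 (2.46-fold), Lpcat2 (1.71-fold) and Lpcat1, Pnpla7 (1.78-fold) and Cds1 (at least 2.31-fold) fell, and the choline kinase Chka rose 1.72-fold by its brightest probe, while its 4 probes differed by 0.036 to 0.78. Pld4 read 1.75 and 1.29 in wild-type and 0.14 and 0.21 in knockout cultures and was called in all 8 fits with an array left out (adjusted p = 0.00946; 0.154 with slide as a block). Fatty acid synthesis had 2 rises among 27, Elovl6, which lengthens palmitate (3.66 and 3.94 against 4.77 and 4.69, 1.9-fold), and Hacd1 (1.62-fold), and Fasn differed by 0.43 (adjusted p = 0.209). Acat2 of sterol synthesis rose 1.47-fold. The knockout duplicates were above the wild-type duplicates for Elovl6 and below them for Pld4.

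Enzymes that build glycans had 6 falls and 4 rises among 120, 8.33% called and near the 7.2% of all features. St3gal6, which caps selectin ligands with sialic acid, read 1.01 and 1.11 in wild-type and 2.22 and 2.14 in knockout cultures (2.17-fold higher, adjusted p = 0.0092). Chst7, a sulphotransferase of chondroitin, read -2.58 and -2.19 against -4.82 and -3.93 (3.98-fold lower, adjusted p = 0.0188). Neither overlapped, and neither was called with slide as a block (adjusted p = 0.161 and 0.229). Chondroitin enzymes went both ways, with Csgalnact2 lower (1.58-fold) and Chpf higher (2.07-fold). Large2 rose 2.3-fold by its brighter probe (adjusted p = 0.0269) and was not called against the same-slide control (adjusted p = 0.0756).

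Nucleotide enzymes had 3 rises and 1 fall among 57, 7.02% called and near the 7.2% of all features. Pfas of purine synthesis rose 1.93-fold, the nucleotidase Nt5c2 1.9-fold and the S phase enzyme Tk1 1.54-fold. Pfas was called in 0 of 8 fits with an array left out. Steap4, a metalloreductase, was not well above background on either knockout array and was at least 5.19-fold lower (adjusted p = 0.0183; 0.217 with slide as a block). Several lists gave no call. By limma 0 of 87 oxidative phosphorylation genes were called (19 at an unadjusted p under 0.05, median log2 fold change 0.27), 0 of 43 genes of the tricarboxylic acid cycle and pentose phosphate pathway (9 at that level, median 0.19) and 0 of 41 sphingolipid enzymes (15 at that level, median -0.15).

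**Figure D4:**
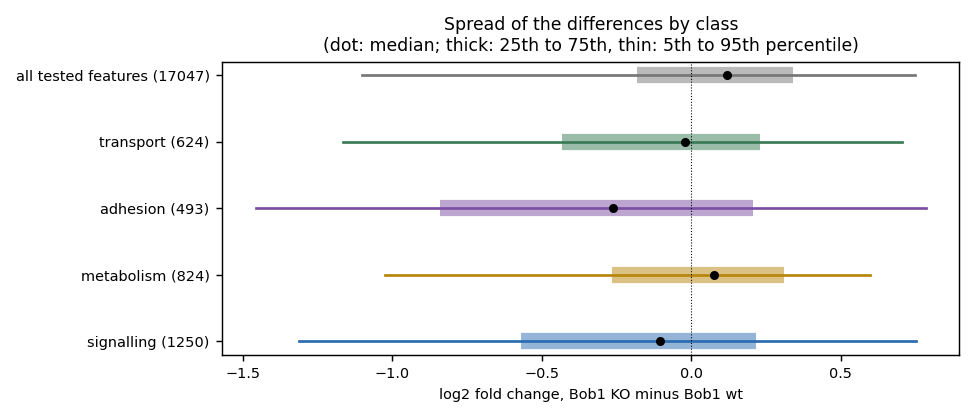
Log2 fold change (Bob1 knockout minus Bob1 wild-type) over all tested features and over the tested members of the 4 classes, with medians as dots and the 25th to 75th (thick) and 5th to 95th percentiles (thin) as bars. The median was 0.12 over all features, 0.077 for metabolism, -0.021 for transport, -0.10 for signalling and -0.26 for adhesion, and the bars overlap throughout.

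Outside these classes the B lineage genes named for the comparison fell. Ly6d, a surface antigen of B lineage cells, read 7.43 and 7.32 in wild-type and 1.85 and 0.78 in knockout cultures (66.5-fold lower), Ms4a1 (CD20) 4.88 and 4.84 against -0.0028 and -1.08 (42.3-fold lower), and the lambda segment Iglv1 6.27 and 5.79 against 0.40 and -0.42 (66-fold lower). All 3 were called with slide as a block (adjusted p = 0.0178, 0.0183 and 0.018). Zfpm1, the GATA cofactor FOG-1, read 5.18 and 5.23 against 1.03 and 1.01, an 18.2-fold fall with duplicates close together (SE 0.12, adjusted p = 6.59e-05; 0.00445 with slide as a block). Fcmr, the IgM Fc receptor, fell 23.2-fold (adjusted p = 0.00946; 0.144 with slide as a block), with knockout duplicates at 0.74 and -1.0. H2-DMb2, a class II peptide loading chain, fell 27.5-fold (SE 0.92, adjusted p = 0.0337), but it was not called with slide as a block (adjusted p = 0.314). Its knockout arrays read -4.55 and -7.8, of which 1 was well above background.

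Among the rises Asb10, an ankyrin and SOCS box protein, was not well above background on the wild-type arrays and was at least 21.2-fold higher at -1.56 and -1.59 (adjusted p = 9.5e-05; 0.00622 with slide as a block). The transcript 2610028E06Rik was at least 15.6-fold higher and Capza3 at least 7.31-fold, the latter with knockout values of -2.15 and -4.44. Pdcd1, the inhibitory receptor PD-1, read -2.95 and -3.6 in wild-type and 0.16 and 0.049 in knockout cultures (10.4-fold, adjusted p = 0.0232; 0.202 with slide as a block). Tmc5, of the TMC membrane protein family, read -2.92 and -2.61 against 0.13 and 0.31 (7.88-fold, adjusted p = 0.000465; 0.018 with slide as a block). In all 5 the knockout arrays were above the 6 others.

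Markers of other cells are given for comparison. Among 12 markers of mature B and plasma cells 5 fell (Ms4a1, Ciita, Cd40, Cd74 and H2-Aa) and 3 rose (Irf4, Sdc1 and Cd22), and their summed signal went from 165 and 140 times the 75th percentile in wild-type to 47.2 and 45.8 times in knockout cultures. For granulocytes 1 of 13 fell (Elane), with a summed signal of 1236 and 925 times in wild-type and 820 and 1027 times in knockout cultures, which overlap (median log2 fold change -0.92). Of 15 markers of monocytes, macrophages and dendritic cells limma called 0 (6 lower at an unadjusted p under 0.05), with a median log2 fold change of -0.94. They summed to 425 and 374 times in wild-type and 214 and 372 times in knockout cultures. Mast cell and basophil markers had a median of -0.83, with 0 of 8 called by limma and 0 at an unadjusted p under 0.05. They summed to 25.3 and 8.36 times in wild-type and 8.14 and 7.86 times in knockout cultures. Of this list the mast cell genes Cma1 and Tpsb2 were not well above background on any array of either group. Erythroid and megakaryocyte markers (0 of 11 called by limma, 2 at an unadjusted p under 0.05) had a median of -0.73 and summed to 163 and 90.7 times against 57.7 and 82.6 times. Cd40 and Cd22 described above are themselves members of the mature B cell list, and Il7r and Cd24a of the pre-B cell list. The part of these cells in the falls of adhesion and signalling genes that they also express, such as Cd36, Csf2rb and Gpr84, was not tested.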

How the data were processed

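The authors deposited 8 scanner files from Feature Extraction (version 10.5.1.1, per the file headers), whose processed intensity was used here after background subtraction, spatial and multiplicative detrending, and with surrogate values for spots near background; coordinates are mm9. Control and outlier-flagged spots were left out, the 75th percentile of an array was subtracted from its log2 intensities, and repeated spots were averaged. Probes well above background on both arrays of either Bob1 group were tested (26186 of 41174), using the brightest per symbol, which gave 14227 named and 2820 unnamed features. Names came from a RefSeq table of GRCm38.p6 through transcript accession (27676 probes) or file symbol (6051 probes); 1151 kept the file's symbol only and 6296 had none. All 8 arrays entered a limma (version 3.58.1, R 4.3.3) fit with 4 group means and 4 residual degrees of freedom, with no term for sex or slide, and the procedure was tested on simulated data. Where both arrays of the dimmer group were below that limit, the fold is a lower bound ("at least"), setting the brighter mean against, per array, the higher of its own signal and the lowest signal well above background. The authors' deposited value table, on a log2 scale with normalization not given in the sources used here, served as an alternative, and limma is named in the submitters' processing notes. Genes were named by rule. These were the 5 largest falls and 5 largest rises by measured or bound fold in each class, and the same 5 and 5 outside the classes. They were taken only from called genes whose knockout and wild-type arrays did not overlap. Every member also called with slide as a block was added, and the 4 genes Pou2af1, Ly6d, Ms4a1 and Iglv1. Other genes were chosen after their values were seen. Of the 246 called class members 245 did not overlap, so a lack of overlap adds little to a call. Members and lists were chosen with earlier results of these data known, and list patterns that had taken in unrelated genes were corrected after values were seen. The number of arrays limits the precision. A probe's exon or intron was not determined here. A few genes and 1 gene list that the rules took in are not reported here by name, and counts still include them.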

Additional observations from a re-analysis of the deposited data

How the results depend on the processing

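Counts over all features, then adhesion, metabolism, signalling and transport, were 1228, 43, 37, 128 and 41 as reported. They were 0 in each case with normexp background over all spots (126 features at an unadjusted p under 0.05 by limma), where the fit was upset on 4 arrays by 15 spots darker than their background. Without those spots, a setting chosen after seeing the data, they were 3350, 106, 126, 269 and 113, with 2495 rises and 855 falls. They were 560, 20, 12, 49 and 17 with no filter on dim probes, 334, 17, 6, 35 and 13 from the 4 Bob1 arrays alone with 2 residual degrees of freedom, and 128, 5, 2, 12 and 4 with slide as a block. Leaving out an array gave 386 to 965, 12 to 36, 7 to 27, 29 to 105 and 12 to 36; when a Bob1 array is left out, the lone array is assumed to vary like the other groups. The deposited value table gave 1019 calls, 637 higher and 382 lower, and 26 for transport. Of the 1228 reported calls 643 were called there too and 1226 had the same direction. Of the 61 genes named by rule 41 kept their call there and 20 did not. Quantile normalization, the mean of a gene's probes, the filter over all 4 groups, the filter over all 4 Bob1 arrays and the same-slide control kept these 5 counts within 1.5 times. The cause of these shifts was not tested.

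The replicate letter is also sex (A female, B male in every group), which the reported p-values leave out. With it as a replicate block, 1979, 72, 72, 194 and 65 were called; deviations of same-lettered arrays correlated at 0.078 to 0.39 over features, with 5 of 6 pairs of groups over 0.1 and 1 under it, so the block was kept as an alternative. The median log2 fold change of all features was 0.12, -0.023 with normexp, 0.18 without the dark spots, 0.077 with quantile normalization and 0.0099 in the deposited table. Of 61 genes named by rule, which favours large changes, 34 were called in all 8 fits with an array left out and 56 against the same-slide control. Signs turned for Col24a1 (-0.015) and Aqp4 (-0.090) with normexp over all spots, and for Kcnj16 (0.076) without the dark spots. Signal over background limits 20 called class members in knockout and 5 in wild-type cultures to a bound.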
